A study of Sus scrofa with 6 samples.

Results

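The basic helix-loop-helix (bHLH) genes of the somite and the mesenchyme were followed here through their promoters and flanking chromatin, namely TWIST1, TWIST2, MSC, TCF15, TCF21 and SCX, 6 of the 28224 genes of the pig annotation. Every peak that overlapped one of the 6 gene bodies or the 20 kb on either side was taken, and peaks of different libraries that overlapped were joined into regions. This gave 69 regions of the 294825 in the whole series, with 11 at TWIST1, 25 at TWIST2, 8 at MSC, 14 at TCF15, 6 at TCF21 and 5 at SCX. A region was called a promoter region where it reached into the 2 kb before the annotated start of the gene, and 7 of the 69 did so.

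Single-cell ATAC-seq was used, where Tn5 cuts open chromatin and each cut is tagged with the barcode of its droplet. The 6 libraries held somites at embryonic day (E) 18 and E21 and myotomes at E28, each from purebred Tibetan pigs (ZZ) and from Duroc x Tibetan pigs (DZ). Each library was a mixture of 5 embryos from 1 sow, so each stage and breed had 1 library, and the 2 libraries of a stage differed in breed as well as in sow. The tissue changed with the stage at E28, so stage and tissue cannot be told apart there. Of 64439 barcodes, 58809 had 2000 to 30000 counts and were kept, with 9286 to 11243 barcodes and 89816504 to 133037579 cut sites per library. Between 113 and 157 kept barcodes were shared by any pair of libraries. No RNA was analysed, and all values below are accessibility.

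bHLH factors bind DNA as pairs at the E-box, which reads CANNTG, and most of those treated here pair with the E proteins TCF3, TCF4 and TCF12, while the ID proteins take the E proteins away from DNA. TWIST1 and TWIST2 keep mesenchymal cells from differentiating, MSC (musculin) is a repressor known from embryonic muscle, and TCF15 (paraxis) is needed for the epithelial form of the somite. TCF21 (capsulin) marks lateral plate derivatives such as the epicardium and some head muscle precursors, and SCX (scleraxis) marks tendon precursors.

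The labelled tissues were checked against lists of marker genes, by their summed level over gene bodies and the 2 kb before them, in CPM, the counts divided by the kept counts of the library times 1000000. The somite list with PAX3, MEOX1 and UNCX summed to 446 to 603 CPM over the 6 libraries. The muscle list with PAX7, MYF5, MYOD1 and MYOG summed to 418, 394, 441 and 354 CPM in the somite libraries and to 387 and 522 CPM in the ZZ and DZ myotomes, so the myotome of the ZZ library lay within the range of the somites in this list. GATA1 of the blood list had no counts in at least 1 library. The somite, muscle, sclerotome, fibroblast, tendon, lateral plate and epithelial lists had counts at every annotated gene in all 6 libraries.

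The sequences below belong to the regions on which the results turn, and were read from the Sscrofa11.1 assembly with the gene starts of RefSeq. The first pair gives the 250 bases before the annotated start of TCF21 (chr1:29978274-29978523, minus strand) and of SCX (chr4:503277-503526, minus strand). The regions that hold these bases changed with stage, and at SCX that region is far longer than the bases shown. The other 3 are stretches under peaks at elements, picked from several, whose open barcodes differed in lineage markers, at MSC (chr4:63689670-63689846), TCF15 (chr17:34637794-34638093) and TWIST2 (chr15:138214964-138215263), all on the plus strand. Capitals mark E-boxes.
TCF21 promoter: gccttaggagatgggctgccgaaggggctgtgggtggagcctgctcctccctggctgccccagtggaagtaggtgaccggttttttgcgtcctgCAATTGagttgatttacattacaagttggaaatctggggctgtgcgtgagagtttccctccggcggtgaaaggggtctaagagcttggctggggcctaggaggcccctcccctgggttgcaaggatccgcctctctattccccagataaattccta
SCX promoter: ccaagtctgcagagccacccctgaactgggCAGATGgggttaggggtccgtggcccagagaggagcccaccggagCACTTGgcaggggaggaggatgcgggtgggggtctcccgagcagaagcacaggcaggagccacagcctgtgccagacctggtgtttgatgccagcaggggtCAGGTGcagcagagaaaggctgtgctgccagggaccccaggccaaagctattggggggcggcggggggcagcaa
MSC element at -20.1 kb: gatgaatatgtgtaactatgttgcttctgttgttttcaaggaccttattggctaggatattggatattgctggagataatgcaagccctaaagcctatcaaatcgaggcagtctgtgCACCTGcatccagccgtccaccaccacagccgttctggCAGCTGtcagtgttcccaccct
TCF15 element at 11.2 kb: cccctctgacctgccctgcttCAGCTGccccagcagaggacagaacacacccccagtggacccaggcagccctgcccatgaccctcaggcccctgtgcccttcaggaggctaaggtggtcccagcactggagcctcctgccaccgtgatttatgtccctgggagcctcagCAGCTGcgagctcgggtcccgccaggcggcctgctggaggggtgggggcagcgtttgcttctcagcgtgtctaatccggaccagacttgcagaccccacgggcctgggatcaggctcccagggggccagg
TWIST2 element at -13.4 kb: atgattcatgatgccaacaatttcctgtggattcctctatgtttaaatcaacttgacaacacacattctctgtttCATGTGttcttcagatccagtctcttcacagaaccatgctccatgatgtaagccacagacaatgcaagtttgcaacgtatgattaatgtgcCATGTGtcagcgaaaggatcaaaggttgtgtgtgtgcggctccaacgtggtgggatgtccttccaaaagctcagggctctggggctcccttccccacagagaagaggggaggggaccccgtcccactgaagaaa

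An E-box was present in 61.9% of 19556 protein-coding promoters of this length, and CANNTG reads the same on both strands. The SCX promoter held 3, of which CAGATG began at -220 from the start. CACTTG began at -175 and CAGGTG at -74. The TCF21 promoter held 1, CAATTG at -156, and the 250 bases before TWIST1, TWIST2, MSC and TCF15 held none. The stretch at MSC held CACCTG and, further on, CAGCTG. The stretch at TCF15 held CAGCTG at both its sites, and that at TWIST2 held CATGTG at both. Whole regions carried 11 E-boxes per kb at the MSC element, 8.0 at the TCF15 element and 7.31 at the TWIST2 element, against a median of 5.48 over the 78533 regions with peaks in all 6 libraries. These elements were picked, and the 26 tested regions of the 6 genes had a median of 5.07, with 1.65 at the TCF21 promoter region and 1.85 at that of TWIST1. A match of these letters describes the sequence and shows no binding.

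**Figure D1:**
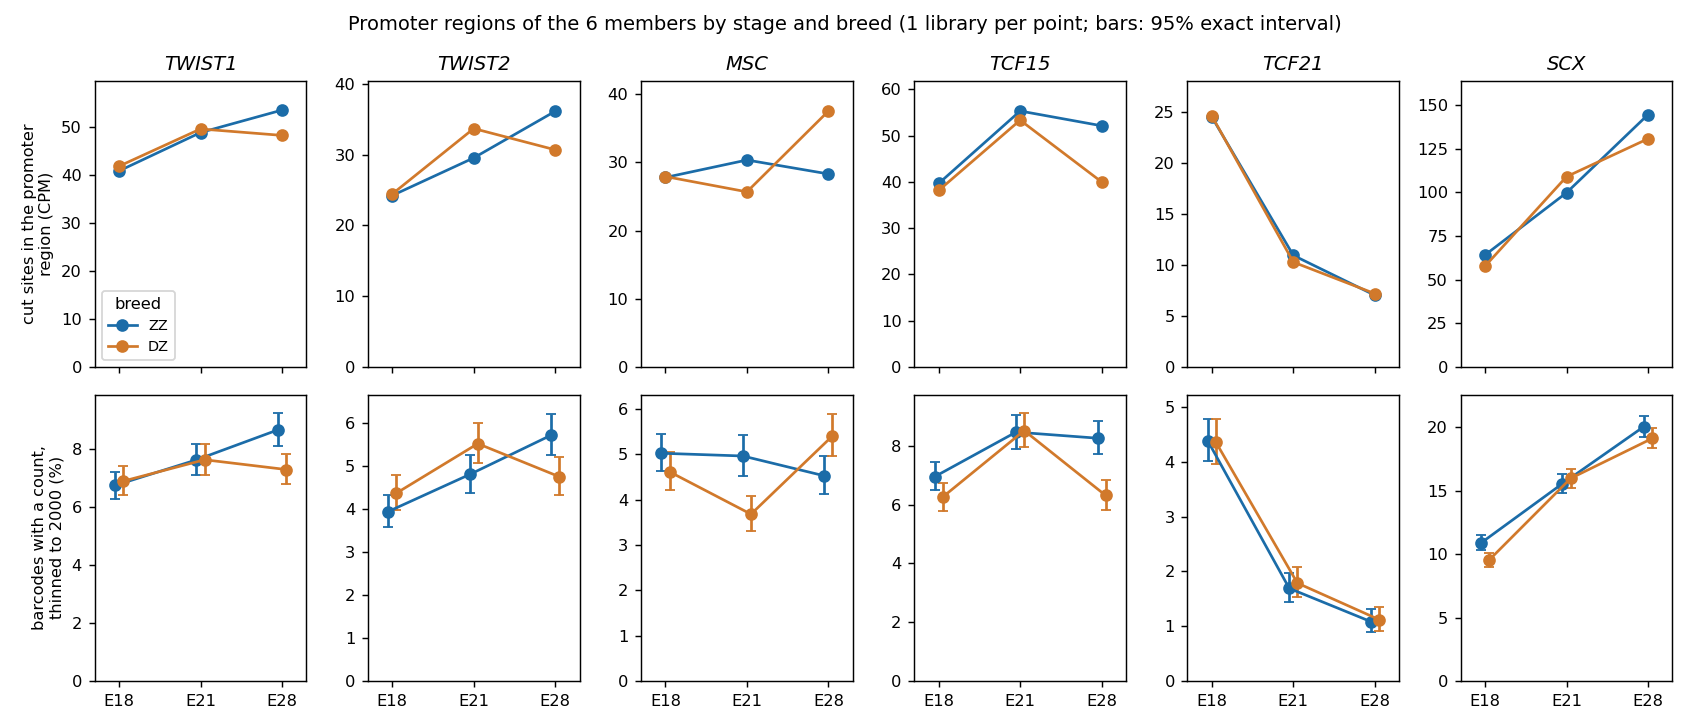
The upper row plots cut sites in the promoter region of each gene as CPM by stage, and the lower row the share of barcodes with a count there after every barcode was thinned to 2000 counts, with 95% exact intervals. Each point is 1 library (ZZ blue, DZ orange). TCF21 fell from 24.5 and 24.6 CPM to 7.04 and 7.20 CPM, and SCX rose from 64.1 and 57.8 CPM to 144 and 131 CPM. For SCX the values are those of the joined region of 11401 bp, most of whose cut sites lay behind the gene. No promoter region of the other 4 genes passed the test on its counts.

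Counts of each region were compared between stages with edgeR over the 78533 regions that had a peak in all 6 libraries, of which 26 belonged to the 6 genes. From E18 to E28, 9 of the 26 passed an adjusted p of 0.05, 5 higher and 4 lower, where 37.1% of all regions did. With counts taken per covered base 21 were called, 19 of them higher. The bases under called peaks fell over the whole series, from 191 and 168 Mb in the E18 libraries to 102 and 108 Mb in those of E28. A region with steady counts and a narrower peak therefore comes out higher per covered base. No share of all regions is given for this or any other alternative below, so such counts do not set the 6 genes apart. From E18 to E21, 1 rose (at SCX) and 1 fell (at TCF21) of 26, against 6.59% of all regions. DESeq2 called 8, covered length as offset gave 6, and leaving out 1 library gave from 0 (without E18 DZ, E21 ZZ or E21 DZ) to 9 (without E28 DZ). From E21 to E28 none of the 26 was called by edgeR, against 7.13% of all regions. An unadjusted p under 0.05 was reached by 4 of the 26 and by 22663 of all 78533 regions. DESeq2 called 3 of the 26. Between breeds edgeR called 0 of the 26 and 0% of all regions, and DESeq2 called 0 of the 26. An unadjusted p under 0.05 was reached there by 0 of the 26 and by 3879 of all regions. The median log2 fold change over the 26 was 0.27 from E18 to E28, and -0.02 over all regions.

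TCF21 showed the largest loss of the 26 regions. The promoter region lies at chr1:29977002-29978817, and the gene at chr1:29975280-29978273. It held 24.5 CPM in E18 ZZ and 24.6 CPM in E18 DZ, 10.9 and 10.3 CPM at E21, and 7.04 and 7.20 CPM at E28. The breeds lay close to each other at every stage and the stages did not overlap. The change was -1.28 ± 0.17 (log2, SE) by E21 (edgeR adjusted p = 0.023) and -1.83 ± 0.17 by E28 (adjusted p = 0.0028). The E21 call was lost without any 1 of the 4 somite libraries (adjusted p = 0.099 without E18 ZZ, 0.16 without E18 DZ, 0.13 without E21 ZZ and 0.26 without E21 DZ), and the E28 call was kept without each of the 6. The peak narrowed at the same time, from 1816 and 1726 bp at E18 to 1334 and 1411 bp at E28, and the level per kb of peak also fell, from 13.5 and 14.3 to 5.27 and 5.10 CPM per kb.

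Of the other TCF21 regions 4 were lower or without a peak at E28, and 1 was not. A second promoter region at chr1:29979489-29980449 had a peak in the 4 somite libraries at 2.23 to 3.27 CPM and none at E28, where it was listed at 0. The region over the 3′ part of the gene, at chr1:29972804-29976406, held 16.7 and 14.3 CPM at E18, 8.52 and 5.67 CPM at E21 and 4.41 and 8.30 CPM at E28. It fell by 1.33 ± 0.39 on the log2 scale from E18 to E28 (edgeR adjusted p = 0.043), while the covered length went from 3573 and 2905 bp in the E18 libraries to 1096 and 1902 bp in those of E28. With counts taken per covered base the change was -0.24 with an adjusted p of 0.34. Without E28 ZZ the change was -0.71 (adjusted p = 0.059) and without E28 DZ it was -2.09 (adjusted p = 0.0012). The call was also lost without E18 ZZ (0.16), E18 DZ (0.11), E21 ZZ (0.065) or E21 DZ (0.062). A pair of short regions, at -7.4 and 7.3 kb from the start, had peaks at E18 only. The region at -15.8 kb held 0.66 and 0.65 CPM at E18, no peak and 0.54 CPM at E21, and no peak and 0.89 CPM at E28, so that in DZ it was highest at E28.

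The share of barcodes with a count in the TCF21 promoter region was 13.1% in E18 ZZ (95% exact interval 12.5 to 13.7) and 13.2% in E18 DZ (12.6 to 13.9). It was 6.13% and 5.39% at E21, and 3.27% (2.92 to 3.65) and 3.74% (3.36 to 4.14) at E28. With every barcode thinned to 2000 counts the shares were 4.39% and 4.36%, then 1.69% and 1.79%, then 1.08% and 1.12%. These intervals cover counting error alone, and fewer cells of a type cannot be told apart from less open chromatin per cell. Barcodes with a count were deeper, with a median of 13286 against 10626 counts in E18 ZZ. The level in the lateral plate and cardiac marker list fell with TCF21, from 593 and 561 CPM at E18 to 412 and 347 CPM at E21 and 249 and 315 CPM at E28. That list was also higher in the barcodes with the TCF21 promoter open in all 6 libraries, by 0.01 to 0.16 on the log2 scale, and WT1, an epicardial and kidney factor, was the one of its 8 genes on the same side in every library, by 0.14 to 0.32. The epithelial list also fell, from 303 and 295 CPM at E18 to 141 and 142 CPM at E28. So did the neuron list, from 354 and 356 CPM to 245 and 247 CPM. The neural progenitor list went from 453 and 482 CPM to 318 and 405 CPM. The part of these cell types in the loss at TCF21 was not tested.

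**Figure D2:**
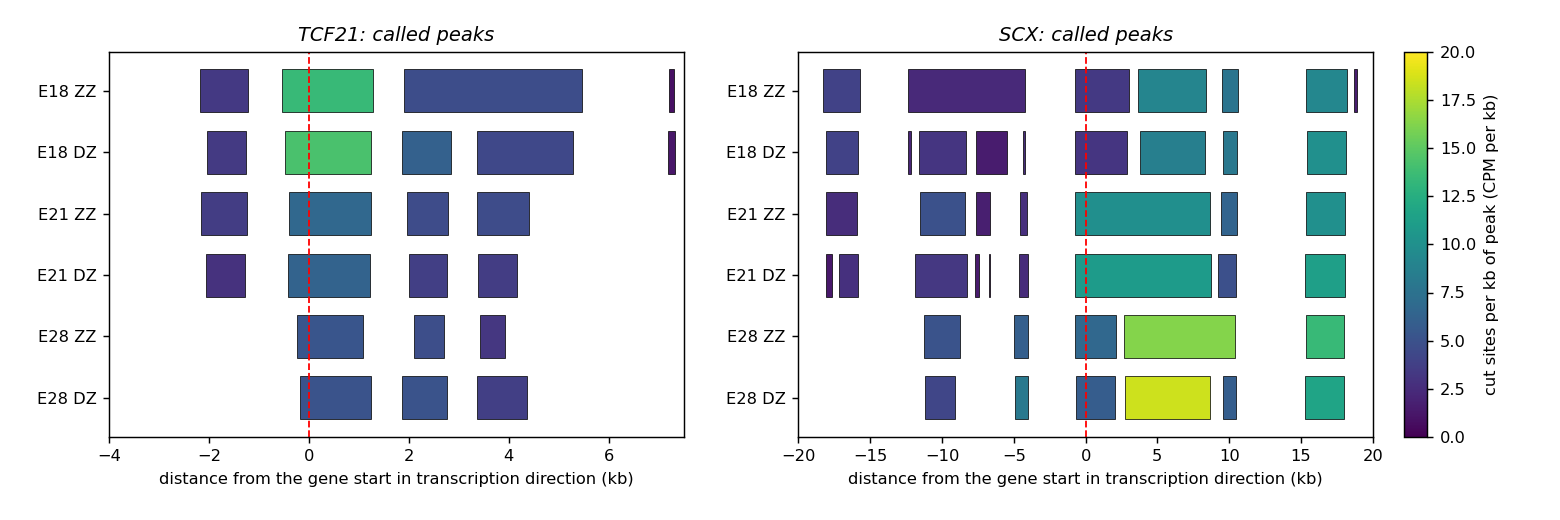
Called peaks around the starts of TCF21 and SCX in the 6 libraries, by distance from the gene start in the direction of transcription (kb, dashed line at 0), with the colour giving cut sites per kb of peak (CPM per kb). At TCF21 the promoter peak loses level and width and the peak before it is missing at E28. At SCX the peak over the start is joined at E21 to the peak behind the gene, and the latter reaches 16.3 and 18.4 CPM per kb at E28.

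SCX was the counterpart of TCF21. The gene lies at chr4:500884-503276 on the minus strand, inside an intron of BOP1, a ribosome assembly gene on the plus strand. Its promoter belonged to a joined region of 11401 bp, chr4:492647-504047, and that region held 64.1 and 57.8 CPM at E18, 99.8 and 109 CPM at E21 and 144 and 131 CPM at E28. The 3 stages did not overlap. The change was 0.71 ± 0.11 (log2, SE) by E21 (edgeR adjusted p = 0.028) and 1.13 ± 0.11 by E28 (adjusted p = 0.0029). The E21 call was lost without E18 DZ (adjusted p = 0.13), E21 ZZ (0.11) or E21 DZ (0.26), and the E28 call was kept without each of the 6 libraries.

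The separate peaks showed where the gain lay. The peak over the SCX start held 12.5 and 11.2 CPM at E18 and 18.7 and 15.9 CPM at E28. The peak behind the gene began at 3657 and 3816 bp from the start at E18 and at 2661 and 2711 bp at E28, thus past the end of SCX and within the BOP1 intron. It held 43.0 and 38.7 CPM at E18 and 126 and 109 CPM at E28, and so carried most of the cut sites of the region. Per kb of peak it went from 9.11 and 8.55 to 16.3 and 18.4 CPM, and the peak over the start went from 3.29 and 3.06 to 6.64 and 5.83 CPM. At E21 both were called as 1 peak with 92.7 and 103 CPM, so the stages could not be compared peak by peak there. In E28 ZZ the peak behind the gene also took in a further peak that the other 5 libraries had on its own at 5.42 to 8.64 CPM.

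The tested neighbours of SCX were not called. The region over the shared promoters of HSF1, the heat shock factor, and BOP1 (chr4:485084-487992) held 26.5 to 35.4 CPM and was not called at E28 against E18 (edgeR adjusted p = 0.13). The region at -8.2 kb inside MROH1 held 13.6 to 19 CPM (adjusted p = 0.81). A further MROH1 region at -17.0 kb held 9.85 and 8.93 CPM at E18, 5.57 and 4.0 CPM at E21, and had no peak at E28. The joined SCX region had a count in 29.3% and 27.4% of barcodes at E18, then 38.3% and 38.0% at E21, and finally 43.0% and 42.6% at E28. After thinning to 2000 counts these shares were 10.9% and 9.54%, 15.6% and 16.0%, and 20.1% and 19.1%. The tendon marker list summed to 247 and 245 CPM at E18, 248 and 269 CPM at E21 and 366 and 374 CPM at E28, and the fibroblast and mesenchyme list rose from 626 and 584 CPM to 852 and 781 CPM. The barcodes with the SCX region open were higher in the tendon list in all 6 libraries, by 0.02 to 0.11 on the log2 scale, and also in the somite, sclerotome and fibroblast lists. The part of these cell types in the gain at SCX was not tested.

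Neither TWIST gene had a promoter region that passed the test on its counts, while per covered base both did from E18 to E28 (edgeR adjusted p = 0.0017 for TWIST1 and 0.0010 for TWIST2). The covered length at E28 was 0.92 (ZZ) and 0.82 (DZ) of that at E18 for TWIST1, and 0.86 and 0.90 for TWIST2. A shorter covered length by itself raises the value per covered base. The TWIST1 promoter region (chr9:88288661-88292986) held 40.8 and 41.8 CPM at E18, 48.8 and 49.5 CPM at E21 and 53.5 and 48.2 CPM at E28. Both later stages lay above E18, with a change of 0.25 ± 0.09 (log2, SE) by E28 at an edgeR adjusted p of 0.073. The broad region behind TWIST1 (chr9:88278501-88285869), which also covers the start of the uncharacterised gene LOC110262240, held 38.3 to 48.4 CPM and showed no order by stage (-0.01 ± 0.10). A region at 15.8 kb, chr9:88273911-88274804, had peaks in the 4 libraries from E21 on at 1.58 to 2.53 CPM and none at E18.

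The TWIST2 promoter region (chr15:138226102-138230774) held 24.2 and 24.4 CPM at E18, 29.5 and 33.7 CPM at E21 and 36.1 and 30.7 CPM at E28. It changed by 0.41 ± 0.13 (log2, SE) from E18 to E28 with an edgeR adjusted p of 0.055, and DESeq2 gave an adjusted p of 0.027. Without E28 DZ the change was 0.54 (adjusted p = 0.022). The region also covers the start of LOC106505784. TWIST2 is the longest of the 6 genes, and its 25 regions thinned out with stage, with 24 and 23 of them under a peak at E18, then 18 and 19 at E21, and finally 10 and 9 at E28. Of these, 6 had peaks in all 4 somite libraries and in neither E28 library, as had 9.14% of all regions, and 4 had peaks in both E18 libraries alone, as had 12.7% of all regions. The libraries as a whole went the same way, from 217138 and 199846 peaks at E18 to 131975 and 137769 at E28.

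Within TWIST2 single regions moved in opposite directions. The region at 6.6 kb (chr15:138234418-138236073) held 1.60 and 1.17 CPM at E18, 3.92 and 3.33 CPM at E21 and 3.48 and 2.71 CPM at E28, a rise of 1.12 ± 0.31 on the log2 scale by E28 (edgeR adjusted p = 0.037). The region at 62.1 kb, behind the gene, rose by 1.07 ± 0.26 (adjusted p = 0.024), with 3.8 and 4.52 CPM in the E18 libraries and 8.46 and 9.54 CPM in those of E28. The region at 14.7 kb fell by 0.83 ± 0.22 (adjusted p = 0.032), from 11.3 and 13.1 CPM to 7.63 and 6.49 CPM. For the last of these the covered length went from 1955 and 1318 bp to 981 and 881 bp, and per covered base the change was -0.03.

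These calls did not all hold with 1 library left out. Such a fit leaves a stage with 1 library and has fewer residual degrees of freedom. That at 6.6 kb was lost without any 1 of the 6 (adjusted p from 0.066 without E21 DZ to 0.28 without E18 DZ). That at 62.1 kb was lost without E18 ZZ (0.084) or E18 DZ (0.20). That at 14.7 kb was lost without each library but E28 ZZ (0.15 without E18 ZZ, 0.19 without E18 DZ, 0.059 without E21 ZZ, 0.059 without E21 DZ and 0.095 without E28 DZ).

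**Figure D3:**
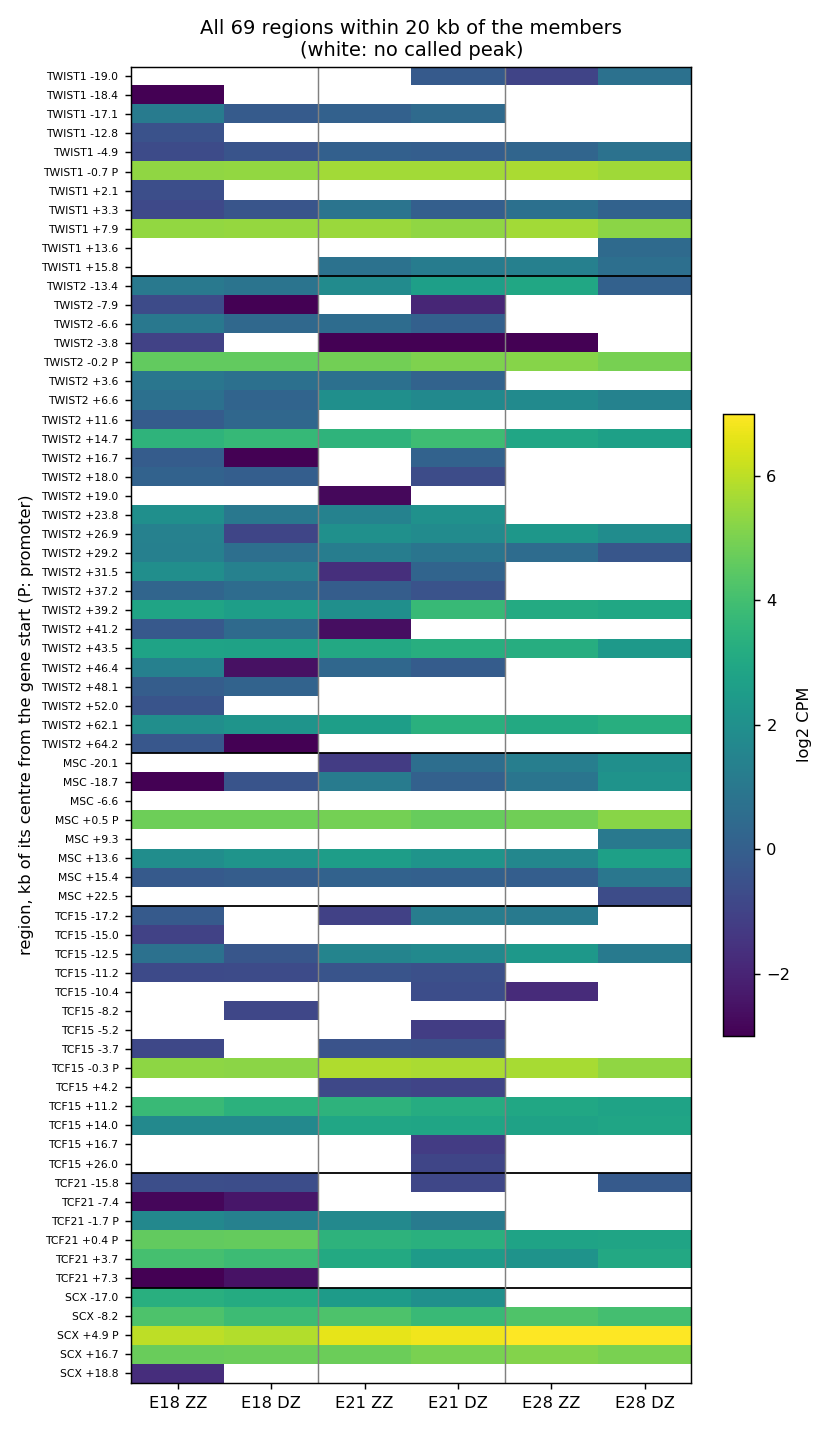
Level of all 69 regions (rows, ordered from upstream to downstream within each gene, with the distance of the region's centre from the gene start in kb) in the 6 libraries (columns), as log2 CPM by colour, with white where no peak was called. At E28, 32 and 33 of the 69 regions had a peak, among them 10 and 9 of the 25 of TWIST2.

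The MSC promoter was not called at any stage. The region at chr4:63707638-63712929 held 27.8 and 27.9 CPM at E18, 30.4 and 25.7 CPM at E21 and 28.3 and 37.5 CPM at E28, with a change of 0.19 ± 0.18 (log2, SE) by E28 (edgeR adjusted p = 0.42). The E28 DZ library stood above the other 5. Without E28 ZZ the change was 0.48 (adjusted p = 0.029), without E28 DZ it was -0.12 (0.58), and per covered base it was 0.37 (0.024). Upstream, the region at -20.1 kb (chr4:63689382-63690013) had no peak at E18, 0.43 and 1.51 CPM at E21 and 2.42 and 3.95 CPM at E28. The region at -18.7 kb (chr4:63690584-63691689) held 0.10 and 0.76 CPM at E18, 2.23 and 1.08 CPM at E21 and 1.84 and 4.44 CPM at E28, a rise of 3.03 ± 0.92 (log2) with an adjusted p of 0.047. The E18 ZZ value rests on 13 counts, and the E18 peaks did not overlap those of E21 DZ and E28 ZZ within the region, so the compared bases differed. Without E18 ZZ the change was 2.09 (adjusted p = 0.13), without E28 DZ it was 2.68 (0.12), and without E18 DZ it was 4.81 (0.041). Per covered base it was 1.61 (0.00019).

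The barcodes with the MSC promoter open differed from the others in muscle markers at the later stages. Levels of marker lists were compared between barcodes with and without a count in the promoter region of a gene, at matched depth and with peaks near the 6 genes left out. For MSC, the muscle list differed by -0.01 and 0.07 (log2) at E18, by 0.11 and 0.36 at E21 and by 0.61 and 0.83 at E28. At E28 the muscle list stood at 564 and 810 CPM in the open barcodes and at 369 and 455 CPM in the others. Over the 6 libraries, the median difference was largest for MYOG, the factor of terminal muscle differentiation (0.77), followed by CHRNA1, a subunit of the acetylcholine receptor (0.51), and the sarcomeric actin gene ACTC1 (0.43). In the same barcodes the fibroblast and mesenchyme list was lower at E28, by -0.15 and -0.32, after 0.05 and 0.05 at E18. The endothelial list was lower in all 6 libraries, at -0.298 to -0.002. The median over all gene windows differed by -0.02 to 0.01 at most for any of the 6 genes in any library.

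Barcodes with an MSC region outside the promoter open were compared with all others of their library in the same way. A library with fewer than 50 barcodes open in a region was left out. This dropped E21 ZZ at -20.1 kb (47 counts) and E18 ZZ at -18.7 kb (13 counts). At -20.1 kb, which was chosen after its values were seen, the muscle list was higher by 1.16 in E21 DZ, 1.17 in E28 ZZ and 1.23 in E28 DZ (log2), with 84, 108 and 180 open barcodes. At -18.7 kb it differed by -0.09 in E18 DZ, by 0.45 and 0.69 at E21 and by 1.02 and 0.96 at E28. The region at 13.6 kb had the most counts outside the promoter. There the muscle list differed by 0.08 and -0.01 at E18, by 0.12 and 0.01 at E21 and by 0.195 and 0.155 at E28. At E28 the region at 15.4 kb stood at 0.08 and 0.49, and that at 9.3 kb, with a peak in E28 DZ alone, at 1.14. Barcodes of a library are not replicates, so these differences carry no test, and the libraries are the only repeats.

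**Figure D4:**
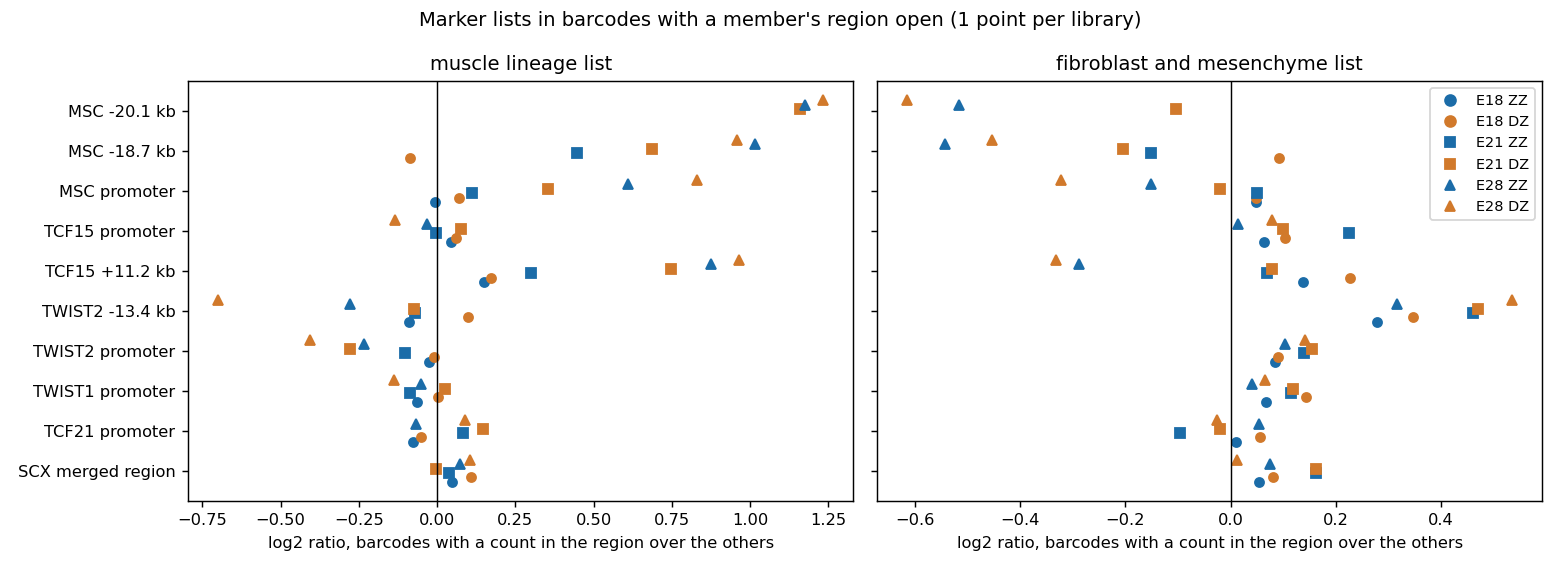
Difference in the summed level of the muscle list (left) and of the fibroblast and mesenchyme list (right) between barcodes with a count in the named region and the other barcodes of the same library, at matched depth, on the log2 scale. Each point is 1 library (circles E18, squares E21, triangles E28, ZZ blue, DZ orange), and the regions outside promoters were picked for display after these values were seen. The MSC regions shown and the TCF15 region at 11.2 kb reach 0.61 to 1.23 for muscle at E28, and the TWIST2 region at -13.4 kb lies above 0 for fibroblast genes in all 6 libraries. The MSC region at 13.6 kb is not shown and stands at 0.195 and 0.155 for muscle at E28. A library with fewer than 50 barcodes open in a region has no point there.

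The TWIST2 promoter differed from that of MSC in the sign of the muscle list at E21 and E28. In barcodes with the TWIST2 promoter open the muscle list was lower in all 6 libraries, by -0.02 and -0.01 (log2) at E18, then -0.10 and -0.28 at E21, and finally -0.23 and -0.41 at E28. The fibroblast and mesenchyme list was higher in all 6, by 0.08 to 0.15. The TWIST2 region at -13.4 kb (chr15:138214700-138215794), also chosen after its values were seen, was further apart for fibroblast genes, by 0.28 and 0.35 at E18, then 0.46 and 0.47 at E21, and finally 0.32 and 0.54 at E28. Its level was uneven between the myotomes, with 7.68 CPM in E28 ZZ and 1.06 CPM in E28 DZ, where the called peak was 981 and 314 bp wide. The TWIST2 region at 14.7 kb had the most counts outside the promoter. There the fibroblast list differed by 0.02 and -0.004 at E18, by -0.06 and 0.02 at E21 and by 0.14 and 0.14 at E28. The TWIST2 region at 62.1 kb was at 0.04 and -0.11 for muscle genes at E18, at -0.25 and -0.32 at E21, and at -0.28 and -0.62 at E28. The TWIST1 region at 15.8 kb, with 90 to 122 open barcodes in the libraries from E21 on, was lower for muscle genes in all 4 (-0.60 to -0.51) and higher for fibroblast genes (0.18 to 0.44). Both were picked after their values were seen. The TWIST1 region at 7.9 kb had the most counts outside the promoter. There the muscle list differed by 0.01 and 0.05 at E18, by -0.01 and 0.03 at E21 and by 0.09 and -0.08 at E28. At the TWIST1 promoter it differed by -0.14 to 0.03. For the TWIST1 promoter the fibroblast list was higher in all 6 libraries by 0.04 to 0.14, the sclerotome and tendon lists by 0.03 to 0.11 and 0.02 to 0.13, and the somite list by 0.01 to 0.10.

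The TCF15 promoter was not called, while a pair of regions behind the gene were. The promoter region (chr17:34623958-34628903) held 39.7 and 38.2 CPM at E18, 55.3 and 53.4 CPM at E21 and 52.1 and 40.0 CPM at E28. E21 stood above E18 in both breeds, with a change of 0.42 ± 0.11 (log2, SE) at an edgeR adjusted p of 0.074 (DESeq2 adjusted p of 0.014). Per covered base the change to E28 was 0.72 (edgeR adjusted p = 4.2e-05), against 0.19 (0.21) on the counts. The covered length at E28 was 0.69 and 0.70 of that at E18, which by itself raises the value per covered base. The single peak of 4693 to 4933 bp in the somite libraries was split into 3 at E28, with 27.1 and 22.6 CPM over the start and 24.4 and 16.7 CPM in the peak before it. The region at 11.2 kb, behind the gene (chr17:34637369-34638493), fell by 0.78 ± 0.20 on the log2 scale from E18 to E28 (adjusted p = 0.030), with 13.8 and 10.7 CPM against 7.70 and 6.92 CPM. The next region, at 14.0 kb, rose by 1.07 ± 0.24 (adjusted p = 0.020), with 3.30 and 3.22 CPM at E18, 7.62 and 7.35 CPM at E21 and then 6.71 and 7.39 CPM at E28. The first call was lost without E18 ZZ (0.24), E18 DZ (0.14), E21 ZZ (0.072), E21 DZ (0.067) or E28 ZZ (0.077), and the second without E18 ZZ (0.097) or E18 DZ (0.18).

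In barcodes with the TCF15 promoter open the muscle list differed by -0.13 to 0.08 (log2) in the 6 libraries, and the fibroblast list was higher in all 6, by 0.01 to 0.23, as it was for TWIST1, TWIST2 and SCX. The endothelial list was also higher in all 6, by 0.04 to 0.07. The neural progenitor list (-0.09 to -0.02) and the neural crest and glia list (-0.07 to -0.01) were lower in all 6. The region at 11.2 kb was named for having the most counts outside the promoter, and its marker values were chosen for display after they were seen. In barcodes with it open the muscle list was higher in all 6, by 0.15 and 0.17 at E18, then 0.30 and 0.75 at E21, and finally 0.87 and 0.96 at E28, with 328 to 841 open barcodes per library. The same barcodes were lower in the fibroblast list at E28 (-0.29 and -0.33) and higher at E18 (0.14 and 0.23). The region at 14.0 kb lay within 0.16 of 0 for muscle in every library (-0.16 to -0.01).

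**Figure D5:**
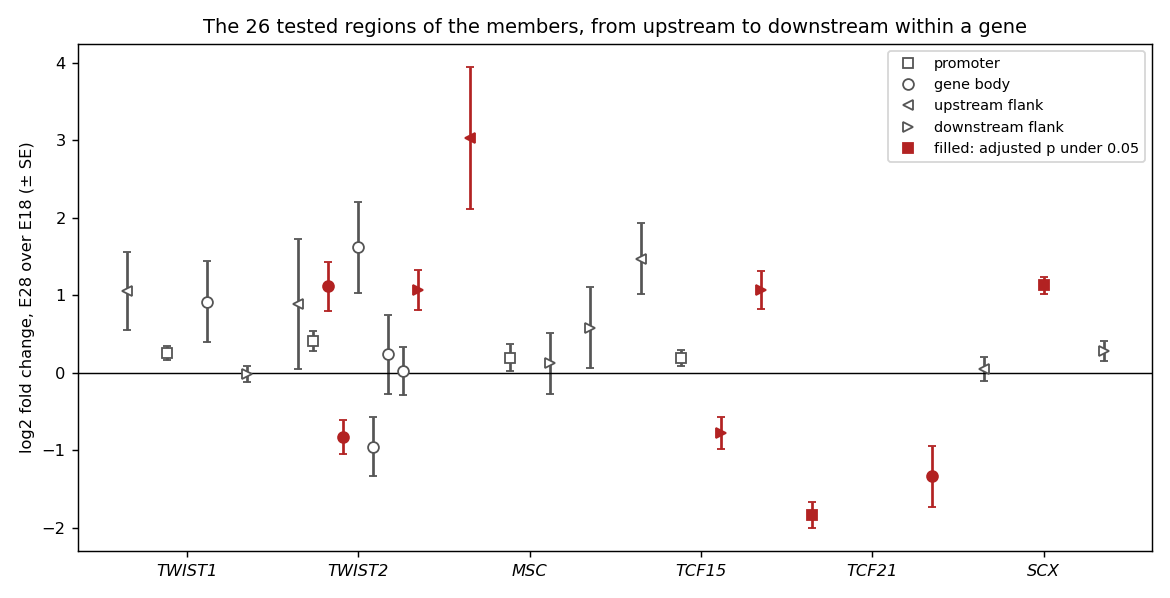
Log2 fold change with its standard error, from E18 to E28, of the 26 regions that had a peak in all 6 libraries, by gene and from upstream to downstream within a gene, with symbols for the class of region and filled red symbols for an edgeR adjusted p under 0.05. Both TCF21 regions lie below 0, and the MSC region at -18.7 kb is the highest with the widest error.

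The number of barcodes with the promoters of a pair of genes open was set against the number given by depth alone. For SCX open means a count anywhere in the joined region, most of whose cut sites lay behind the gene, and not in its promoter alone. Over 15 pairs of genes, the median ratio of observed to expected barcodes with both open ran from 0.93 for TCF15 and TCF21 to 1.1 for TCF15 and SCX. TWIST1 and TWIST2 were open together at 1.01 to 1.11 times the expected number in the 6 libraries. TWIST2 and TCF15 (1.01 to 1.08), TWIST2 and SCX (1.01 to 1.09) and TCF15 and SCX (1.04 to 1.11) also lay above 1 in all 6, and TCF15 and TCF21 below 1 in all 6, at 0.88 to 0.97. The widest range was that of MSC and TCF21, from 0.99 in E28 ZZ to 1.25 in both E21 DZ and E28 DZ, followed by TWIST2 and MSC, at 1.11 and 1.08 in the E18 libraries, above 1 in E21 ZZ and 0.97 in E21 DZ, and 0.91 and 0.88 in those of E28. Of 72 combinations of a gene and a marker list, 18 lay on one side of 0 in all 6 libraries. No such count for other promoters is given, so this one does not set the 6 genes apart.

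Summed over each gene body and 20 kb on both sides, 3 of the 6 windows changed from E18 to E21, against 14.7% of 24989 gene windows. TCF15 rose by 0.48 ± 0.11 (log2, SE, edgeR adjusted p = 0.031), from 60.9 and 54.0 to 79.3 and 79.4 CPM. SCX rose by 0.46 ± 0.08 (adjusted p = 0.019), and TCF21 fell by 1.07 ± 0.21 (adjusted p = 0.0225). Per covered base TCF15 changed by 0.25 (0.21). Its call was lost if any of E18 ZZ (0.12), E21 DZ (0.31) and E18 DZ (0.22) was left out, that of TCF21 likewise (0.12, 0.14 and 0.11), and that of SCX without E18 DZ (0.17) or E21 DZ (0.16). From E18 to E28 TCF21 and SCX were called on their counts, TCF21 at -1.68 ± 0.22 (adjusted p = 0.0010) and SCX at 0.71 ± 0.08 (adjusted p = 0.00072), against 50.8% of windows. Per covered base these changes were -0.58 and 1.15, both still called, and the windows of TWIST1 (0.32), TWIST2 (0.99, against -0.05 on the counts) and TCF15 (0.63) were called too. The covered length of the TWIST2 window fell from 26449 and 18679 bp at E18 to 11484 and 10216 bp at E28. Its 0.99 thus comes from lost peak length at nearly steady counts. No share of all windows is given for this setting. From E21 to E28 edgeR called none of the 6 windows (14.6% of all), and DESeq2 called 2. An unadjusted p under 0.05 was reached by 3 of the 6 and by 8373 of the 24989 windows. Between breeds none was called (0% of all), and none by DESeq2. An unadjusted p under 0.05 was reached there by none of the 6 and by 1882 of all windows. The SCX window takes in BOP1, HSF1 and MROH1. Over the gene body and the 2 kb before it alone, SCX changed by 3.03 from E18 to E21, where the joined peak of E21 counts whole, and by 0.49 from E18 to E28. Per covered base the TCF21 window changed by -0.51 from E18 to E21.

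The partners and programmes of these factors were read from the same windows (log2 changes, edgeR), where 25% of all windows rose and 25.8% fell from E18 to E28. Of the E proteins, TCF3 (0.33, adjusted p = 0.0081) and TCF4 (0.47, adjusted p = 0.0036) rose from E18 to E28 by edgeR, and TCF4 (0.37) and TCF12 (0.41) were called at E21. Of the 4 ID genes, ID2, ID3 and ID4 rose by 0.24, 0.35 and 0.44 (log2). Among 11 other bHLH genes 3 rose and 6 fell, with MSGN1, a presomitic factor, at 1.18, FERD3L at -1.33 and HAND1, a lateral plate factor, at -0.99. The windows of MESP1 and MESP2, both among the 6, overlap and share peaks, and that of FERD3L takes in the TWIST1 regions from -12.8 to -19.0 kb. In the tendon programme 9 of 10 windows rose, led by TNMD (1.90), DCN (1.74) and COL14A1 (1.01), and none fell. In the mesenchyme programme linked to TWIST 4 rose, with VIM at 0.77 and PRRX1 at 0.54, and 4 fell, with ZEB2 at -1.08. In the somite programme linked to TCF15 1 rose (MEOX2, 0.30) and 4 fell, with the segmentation genes RIPPLY1 and RIPPLY2 at -1.30 and -1.31. The median log2 changes of the tendon, mesenchyme and somite lists were 0.73, 0.07 and -0.16, against -0.0024 over all windows. These changes are on counts, and the covered length moved too. From E18 to E28 it went from 44249 and 43305 to 17330 and 18022 bp at ZEB2. At FERD3L it went from 4351 and 4583 to 1259 and 1358 bp, and at TNMD from 1810 and 1942 to 3539 and 3806 bp. Changes per covered base are not given for these lists, so the part of covered length was not tested.

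The windows whose levels followed the members most closely over the 6 libraries were named by Pearson's r on log2(CPM + 1). IRX4 was nearest to TCF21 (r = 0.999), where 462 of 15993 windows passed 0.95. CLUAP1 was nearest to SCX (r = 0.999), where 1158 did. ABCF2 was nearest to TWIST1 (0.997), MIR190A to TWIST2 (0.987), PHF7 to MSC (0.991) and ALLC to TCF15 (0.995). With 6 libraries and so many windows such values describe the order of the libraries and no more.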

How the data were processed

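The deposited matrices held raw counts of Tn5 cut sites per peak and barcode, which the authors made with Cell Ranger ATAC 1.2.0 on Sscrofa11.1, calling peaks in each library separately. Between 90.1% and 92.4% of the values were even, and counts exist only inside called peaks. Barcodes with 2000 to 30000 counts were kept and summed per library. No doublet caller was run, and the upper limit was the only step against doublets. Peaks overlapping by at least 1 base were merged across libraries, and gene windows took in 20 kb on each side. Counts were compared with edgeR 4.0.16 (R 4.3.3) by the quasi-likelihood test, with TMM, filterByExpr, stage and breed as terms and Benjamini-Hochberg adjustment over all features, which left 2 residual degrees of freedom. DESeq2 1.42.0 was an alternative. Marker levels were weighted to equal depth over 10 classes, with a pseudocount of 1 CPM. The p-values measure the spread between the libraries of a stage after the breed term. The rule for named regions took each promoter, the region outside it with the most counts and the called region with the largest change. The members, gene lists and tests were chosen with earlier results of these data known, and the marker results of the regions at -20.1 kb of MSC, at 11.2 kb of TCF15, at -13.4 and 62.1 kb of TWIST2 and at 15.8 kb of TWIST1 after their values were seen. Some genes of the marker and likeness lists are not reported here.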

Additional observations from a re-analysis of the deposited data

Results flagged for a closer look

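For 11 changes the ZZ and DZ libraries moved in opposite directions between stages, by at least 0.2 on the log2 scale on each side. With 1 library per stage and breed none of these differences was tested. They were sought among the 26 tested regions and the 6 windows in every comparison between stages. No share of all regions that meet this rule is given, so the count does not set the 6 genes apart and shows no effect of breed. At the TWIST2 region at -13.4 kb the change to E28 was 1.90 in ZZ and -0.74 in DZ against E18, a difference (DZ minus ZZ) of -2.65, and 1.12 and -2.54 against E21, a difference of -3.66. At the TWIST2 region at 39.2 kb the difference was 1.99 from E18 to E21 (-0.86 in ZZ, 1.13 in DZ) and -1.90 from E21 to E28 (1.12 and -0.78). At the TWIST2 region at 43.5 kb it was -0.85 from E18 to E28 (0.46 and -0.38) and -1.11 from E21 to E28 (0.21 and -0.90).

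At MSC the region at -18.7 kb differed by 2.32 from E21 to E28 (-0.28 in ZZ, 2.04 in DZ). The MSC region at 13.6 kb differed by 0.80 from E18 to E28 (-0.28 and 0.51) and by 1.44 from E21 to E28 (-0.93 and 0.51). The TCF15 region at -12.5 kb differed by -1.45 from E21 to E28 (0.80 and -0.65), and the TCF21 region at 3.7 kb by 1.5 (-0.95 and 0.55).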

How the results depend on the processing

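The E28 calls against E18 of the TCF21 promoter, the joined SCX region and both their windows were kept under every alternative. Of the 26 regions, those called from E18 to E21 went from 2 to 8 with DESeq2, 6 with covered length as offset, 4 with barcodes counted, 4 with peaks open in at least 1% of barcodes, and 0 to 9 with 1 library left out. From E18 to E28 they went from 9 to 21 with covered length as offset and to 3 to 9 with 1 library left out. From E21 to E28 they went from 0 to 3 with DESeq2, 7 with covered length, 2 with peaks in at least 1% of barcodes and 0 to 3 with 1 library left out. Of the 6 windows, 0 to 4 were called from E18 to E21 with 1 library left out. From E18 to E28, 5 were called with covered length and 2 to 3 with 1 library left out. From E21 to E28, DESeq2 called 2, covered length 3, barcodes counted 1, the window of the gene body and 2 kb before it 1, and leaving out 1 library 0 to 2. Leaving out a library leaves a stage with 1 library, assumed to vary like the others. Breed calls stayed at 0 throughout. No share of all regions or windows is given for these alternatives, so their counts have no background beside them.

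The TWIST2 window from E18 to E28 (-0.05) turned to 0.99 with covered length and ran from -0.30 to 0.16 with 1 library left out. The MSC window from E18 to E21 (0.16) turned to -0.01 with covered length (-0.0124) and with the 2 kb window (-0.0084), and ran from -0.15 to 0.43. The TWIST2 window from E18 to E21 ran from -0.11 to 0.60, the MSC promoter from -0.27 to 0.13 by E21 and from -0.12 to 0.48 by E28. Apart from the shorter covered length of the TWIST2 window at E28, the cause was not tested. Median shares of open barcodes thinned to 2000 counts were 7.47% for TWIST1, 4.78% for TWIST2, 4.79% for MSC, 7.61% for TCF15 and 15.8% for SCX, and with 4000 to 60000 counts 24.8% for TWIST1 and 16.5% for TWIST2. The labels give no replicate numbers that pair libraries, and the breed term compared the stages within each breed.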
